A study of Homo sapiens with 2 samples.

Results

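The genes described here are 43 genes of the G1/S transition and of DNA replication in SH-SY5Y, an established human neuroblastoma cell line. They were chosen by name, as a list of replication and G1/S symbols, and each of them matched 1 of the 33538 Ensembl gene identifiers of the count table. Untreated cells of 1 culture were divided over 2 flasks, SplitA and SplitB, each tagged with a hashtag antibody of its own, and the pooled cells gave an mRNA library and a hashtag library by CITE-seq. Of 2879 cells, 1179 belonged to SplitA, 1605 to SplitB and 95 were multiplets, and the cells used here are the singlets with 1000 or more genes, 899 in SplitA and 1195 in SplitB. These cells hold 5852780 UMIs (unique molecular identifiers, 1 per captured transcript) in SplitA and 8066440 in SplitB, with medians of 6063 and 6346 per cell. The flasks come from the same line and library, no treatment was compared, and 1 flask against 1 flask allows no test, so values are given for each flask and intervals (95%) cover counting error only. Cells were not used as replicates.

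The line was checked against its markers. Of 9 adrenergic neuroblastoma markers, 8 had 50 or more UMIs in each flask, among them STMN2 at 708 and 677 CPM (UMIs per 1000000 UMIs of the same cells), while TH had 9 UMIs in each flask. The Schwann-like marker SOX10 and the blood markers PTPRC and HBB had 0 UMIs in both flasks. A subset of the kept cells stood apart. In 70 cells of SplitA and 104 of SplitB, 15% or more of the UMIs came from 13 mitochondrial genes, their median UMI number was 2704 and 2837 against 6329 and 6579 in the other cells, and the 43 genes were 2.13-fold and 1.81-fold higher in them. Of these cells, 34 in SplitA and 56 in SplitB were also among those of high G2M share without high histone share that are used further on. For some genes, levels and folds over the ranges and the position by G2M share are given with and without these cells. Counts and medians over genes are mostly given with them only. Positions by histone share, and folds of the cells of highest histone or G2M share over the others, were not computed without them.

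Before a cell copies its DNA, origins are licensed in G1 by loading the MCM2-7 helicase with the help of ORC, CDC6 and CDT1. At the start of S phase the helicase is completed by CDC45 and the GINS complex, and DNA is then made by primase, polymerases, the sliding clamp PCNA and its loader RFC, with nucleotides supplied by enzymes such as ribonucleotide reductase and thymidylate synthase. Much of this machinery is transcribed together late in G1 under E2F transcription factors, which the retinoblastoma protein holds back until cyclin-dependent kinases phosphorylate it. Replication-dependent histone genes are expressed during S phase, and genes for mitosis rise in G2 and M.

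E2F factors bind short sequences with a TTT followed by a GC-rich core, and the stretches below are shown because they hold such letters close to the start of 8 of the 43 genes. Each is RefSeq sequence (GRCh38.p14), written 5′ to 3′ on the strand of the gene, with the letters TTTCGCGC, TTTGGCGC, TTTCCCGC or TTTGCCGC, or their reverse complement, in capitals. A match of letters is a description and not a bound site. All stretches run from 100 bases before the annotated start to 20 bases into the transcript, apart from that of MCM6, which runs from 170 to 51 bases before it.
MCM2 (chr3:127598311-127598430, plus strand): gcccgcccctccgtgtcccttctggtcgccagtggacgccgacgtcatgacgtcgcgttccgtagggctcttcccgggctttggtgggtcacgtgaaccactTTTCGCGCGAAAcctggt
MCM3 (chr6:52284723-52284842, minus strand): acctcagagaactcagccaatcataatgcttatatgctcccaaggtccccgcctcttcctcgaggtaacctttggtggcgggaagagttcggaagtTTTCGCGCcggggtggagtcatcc
MCM6 (chr2:135876494-135876613, minus strand): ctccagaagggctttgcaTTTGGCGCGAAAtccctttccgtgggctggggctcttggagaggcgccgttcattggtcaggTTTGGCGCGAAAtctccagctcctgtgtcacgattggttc
MCM7 (chr7:100101378-100101497, minus strand): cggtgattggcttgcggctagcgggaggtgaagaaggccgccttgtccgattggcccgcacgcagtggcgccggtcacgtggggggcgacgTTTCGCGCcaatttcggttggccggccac
CDC6 (chr17:40287779-40287898, plus strand): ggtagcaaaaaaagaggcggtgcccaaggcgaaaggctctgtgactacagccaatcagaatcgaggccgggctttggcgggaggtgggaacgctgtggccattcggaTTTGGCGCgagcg
PCNA (chr20:5126603-5126722, minus strand): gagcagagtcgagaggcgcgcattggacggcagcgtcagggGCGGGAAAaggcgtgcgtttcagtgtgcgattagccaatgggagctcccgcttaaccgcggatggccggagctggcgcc
TYMS (chr18:657553-657672, plus strand): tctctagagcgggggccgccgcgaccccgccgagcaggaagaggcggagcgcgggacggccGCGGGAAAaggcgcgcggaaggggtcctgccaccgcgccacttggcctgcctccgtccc
E2F1 (chr20:33686366-33686485, minus strand): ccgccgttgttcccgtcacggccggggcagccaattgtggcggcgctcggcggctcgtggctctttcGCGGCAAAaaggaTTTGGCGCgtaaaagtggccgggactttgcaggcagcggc

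In MCM2 and at both places in MCM6 the capitals are 2 overlapping matches, 1 on each strand, because the end of TTTCGCGC and TTTGGCGC can be read again as the start of a match on the other strand. Over the window of 250 bases before to 50 after the start, 21 of the 38 genes with a RefSeq window held at least 1 of the E2F sequences, against 3.99% of the 27305 genes with a window on the main chromosomes. The CHR, an element of genes that peak in G2 and M and searched here as TTTGAA on both strands, was in 5 of the 38 windows (DUT, RRM1, UNG, BRIP1 and UBE2T), against 18.2% of all genes. MCM4, MCM5, GINS4, DSCC1 and CCNE2 had no window.

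The summed level of the 43 genes was 2530 CPM (2490 to 2572) in SplitA and 2514 CPM (2479 to 2548) in SplitB, and the intervals of the flasks overlapped. UMIs were counted from the 3′ end, so a level is not per length, and differences between genes also hold differences in capture. DUT, which removes dUTP and so keeps uracil out of DNA, was the highest, with 373 CPM (358 to 389) in SplitA and 371 CPM (358 to 385) in SplitB. It was followed by SIVA1, a gene linked to apoptosis, at 220 and 213 CPM, and by PCLAF, a protein that binds PCNA, at 207 and 205 CPM. The order of SIVA1 and PCLAF was the same in both flasks but their intervals overlapped. At the other end, CCNE2, a cyclin E gene, had 17 and 32 UMIs, or 2.90 CPM (1.69 to 4.65) and 3.97 CPM (2.71 to 5.60). With POLA1 (47 and 49 UMIs), DSCC1 (48 and 66) and BRIP1 (49 and 78), it fell under the minimum of 50 UMIs in each flask, which left 39 genes for the pairs, the ranges and the order. POLA1 is a subunit of the polymerase that starts new strands, DSCC1 helps to load the clamp and BRIP1 is a repair helicase.

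Among the 10 helicase genes, MCM7 stood highest at 128 and 130 CPM, followed by GINS2 at 72.4 and 72.6 CPM and MCM3 at 66.0 and 65.3 CPM. The 6 subunits MCM2 to MCM7 enter the hexamer in equal number, yet their UMI levels spanned 4-fold in SplitA and 4.18-fold in SplitB. MCM4 had 46.8 and 39.9 CPM, MCM5 35.2 and 31.1, MCM6 32.3 and 32.5, and MCM2 32.1 and 32.2. The last 3 of these overlapped in their intervals. CDC45, GINS4 and GINS1 were scarce, between 8.54 and 15.9 CPM, so the 3 measured GINS subunits spanned 8.48-fold and 6.51-fold.

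The genes of licensing and firing were of middle level. CDT1, the MCM loader, had 58.1 and 55.5 CPM, and ORC6, a subunit of the origin recognition complex, had 49.0 and 44.1 CPM. MCM10, which acts when the helicase starts, had 24.3 and 30.1 CPM, and CDC6, the other loader, 19.6 and 18.5 CPM. In the clamp and synthesis group PCNA was at 78.4 and 73.5 CPM and FEN1, the flap endonuclease of lagging strand synthesis, at 60.1 and 60.7. The clamp loader subunits RFC2, RFC4, RFC3 and RFC5 went from 48.9 and 49.2 down to 11.6 and 10.9 CPM. Of the nucleotide enzymes besides DUT, thymidylate synthase (TYMS) had 113 and 111 CPM and thymidine kinase (TK1) 60.3 and 57.2 CPM. The ribonucleotide reductase subunits were unequal, with 70.2 and 65.8 CPM for RRM2 against 39.6 and 41.5 for RRM1.

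Among the control genes, the transcription factors MYBL2 (102 and 107 CPM) and E2F1 (87.3 and 83.1 CPM) stood well above the cyclin gene CCNE1 (13.2 and 10.2 CPM). The chromatin genes lay close together. CHAF1A, a subunit of the chromatin assembly factor, had 41.9 and 42.6 CPM, SLBP, which binds histone mRNA, 39.6 and 41.0, and UHRF1, which maintains DNA methylation, 34.5 and 36.7. Of the repair and checkpoint genes, the ubiquitin-conjugating enzyme UBE2T was the highest at 134 and 130 CPM, and the checkpoint adaptor CLSPN had 42.2 and 51.2. UNG, the uracil glycosylase, had 20 and 22.4 CPM, and EXO1, an exonuclease, 10.1 and 8.68.

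**Figure D1:**
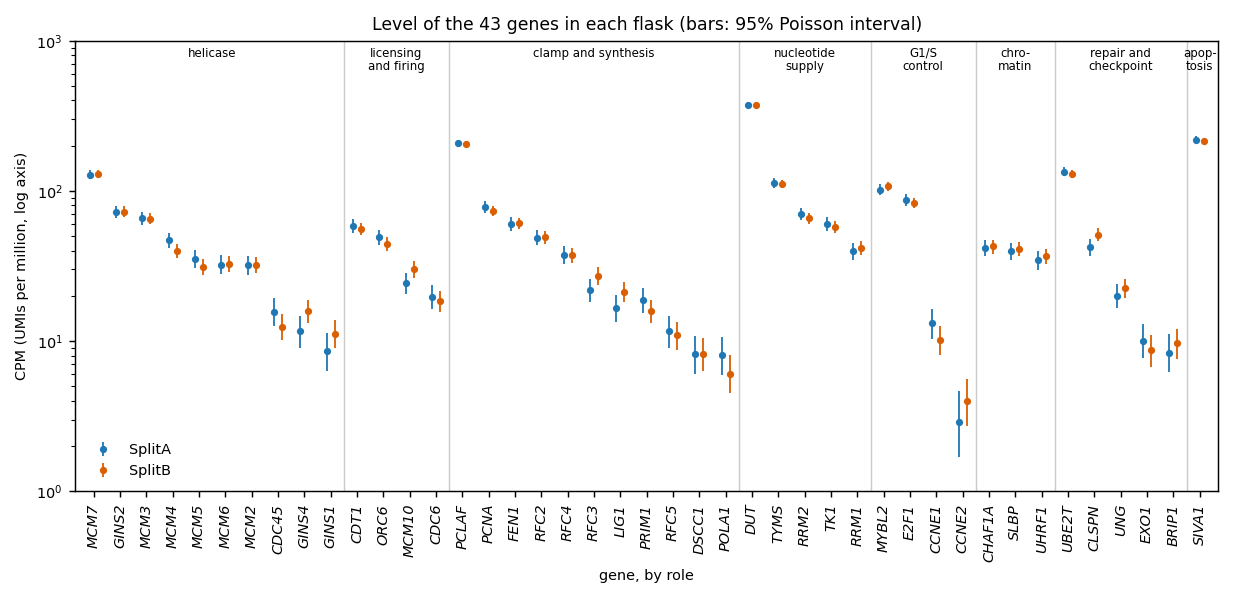
Level of each of the 43 genes in SplitA and SplitB, in CPM on a log axis, grouped by role; points are flasks and bars 95% Poisson intervals. The flasks nearly coincide from DUT at 373 and 371 CPM down to CCNE2 at 2.90 and 3.97 CPM.

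The flasks agreed closely. None of the 39 genes differed by over 1.5-fold between them, where 0.374% of 7756 genes with 50 or more UMIs in each flask did, and the largest ratio was 1.37. The rank correlation of the levels over the 43 genes was 0.993, a description over genes that share a library. For 3 of the 39 genes the counting interval of the ratio SplitA over SplitB left out 1, a share near that of all genes (6.5%). The ratio was 0.732 (0.537 to 0.990) for GINS4, 0.805 (0.650 to 0.995) for MCM10 and 0.824 (0.701 to 0.967) for CLSPN, all higher in SplitB. The interval does not cover differences between flasks of the same culture, which 2 flasks cannot estimate. The mean share over cells, in place of summed UMIs, gives every cell the same weight. By it CDC45 (23.1 and 13.5 CPM) and GINS4 (11.2 and 16.7 CPM) passed 1.5-fold, as did 0.774% of all genes. In the cells of high mitochondrial share CDC45 was 14.2-fold higher in SplitA and 3.37-fold higher in SplitB.

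Most genes were seen in a minority of cells. DUT had a UMI in 80.2% of the cells of SplitA and 82.6% of those of SplitB, PCLAF in 57.4% and 56.8%, MCM7 in 48.1% and 50.8%, and CCNE1 in 7.34% and 6.44%. After each cell was thinned to 2000 UMIs, which left out 1 cell of SplitA and 2 of SplitB, DUT was seen in 50.1% and 51.0%. All cells are of 1 line and none is known to lack these genes, so the UMIs that free RNA adds could not be measured. Such UMIs may be part of the level in cells where the genes are low. Summed over the 43 genes, the median cell had 23.5 UMIs per 10000 in SplitA and 23.9 in SplitB, the 10% of cells with the highest share had 51.8 and 49.5 or more, and the highest cell 128 and 118. The 25% of cells with the highest share held 51.1% and 49.3% of the UMIs of the 43 genes. In all, 4 cells of SplitA (0.445%, exact binomial interval 0.121 to 1.13) and 9 of SplitB (0.753%, 0.345 to 1.42) had no UMI of any of them. After thinning to 2000 UMIs these were 83 (9.24%) and 92 (7.71%) cells.

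The genes rose and fell together from cell to cell. Co-expression was measured with Pearson's r over the cells of a flask, on LogNorm values (the natural log of 1 plus the counts per 10000), between a gene and the sum of the other 42. It was 0.1 or more in both flasks for 37 of the 39 genes, where 6.84% of the 7717 other genes reached 0.1 with the sum of all 43. The median r was 0.307 in SplitA and 0.293 in SplitB. Ranked by the lower flask, PCLAF had the highest r, 0.498 and 0.460, followed by TYMS (0.435 and 0.443), RRM2 (0.416 and 0.414) and TK1 (0.419 and 0.411). The 2 genes below 0.1 in a flask were GINS4, with 0.0855 in SplitA and 0.182 in SplitB, and CCNE1, with 0.137 and 0.0933. All cells of a flask share a library, and counting noise lowers r for scarce genes. The rank correlation of r with level over the 39 genes was 0.871, so r and level had nearly the same order. Genes that lay low for their level were SIVA1 (0.308 and 0.293), MCM7 (0.336 and 0.323) and SLBP (0.176 and 0.187).

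**Figure D2:**
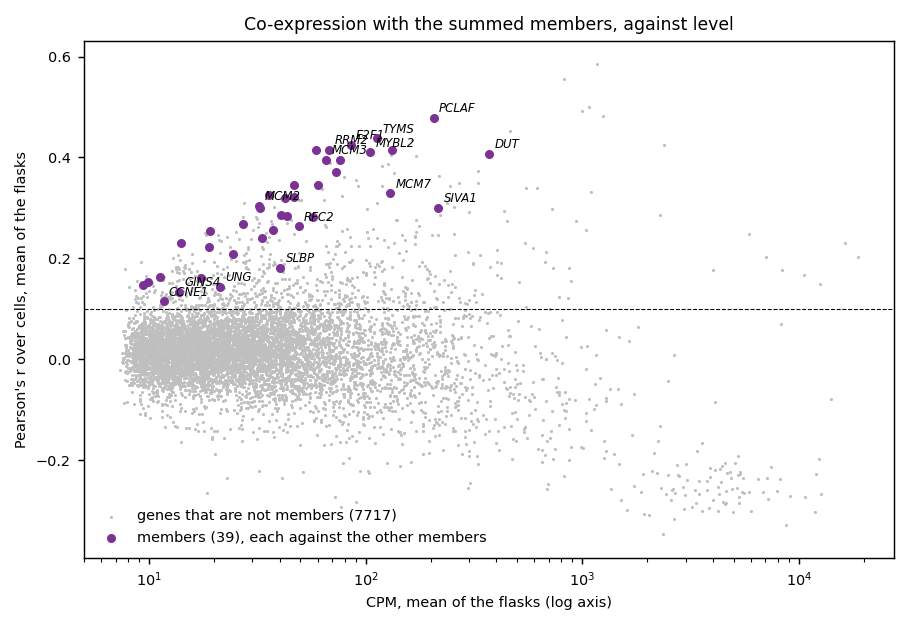
Pearson's r over cells with the sum of the 43 genes (for a member, of the other members), mean of the flasks, against level in CPM on a log axis; purple points are 39 members, grey points 7717 other genes and the dashed line is 0.1. The members run along the upper edge of the cloud at low and middle levels, while SLBP, MCM7 and SIVA1 lie lower than members of like level.

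Between single genes r was small. Over the 741 pairs the median r was 0.111 in SplitA and 0.101 in SplitB, against 0.00337 and 0.00369 over all pairs of the 7756 genes. It was above 0 in both flasks for 706 pairs (95.3%, against 31.4% of all pairs) and 0.1 or more in both for 292 (39.4% against 0.335%). In 50 pairs it was 0.2 or more in both, a limit at which the share of all pairs was not computed. The r of a pair in SplitA had a Pearson correlation of 0.692 with its r in SplitB, over pairs that share genes. The highest pairs were PCLAF with MYBL2 (0.358 and 0.361), PCLAF with DUT (0.335 and 0.333) and MYBL2 with UBE2T (0.309 and 0.286). PCLAF was a partner in 6 of the 10 highest pairs, and the others besides MYBL2 with UBE2T were DUT with UBE2T, TK1 with RRM2, and PCNA with TYMS (0.288 and 0.273).

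To see the size of joint variation without the pull of counting noise, the products of the counts of 2 genes were summed over cells and divided by the sum that the cell totals alone would give. This ratio is 1 for genes that vary independently. Its median over the 741 pairs was 1.35 in SplitA and 1.30 in SplitB, against 1.00 over all genes in SplitA, and it was above 1 in both flasks for 686 pairs (92.6%, against 29.4%). TK1 with RRM2 had 1.82 and 1.84, PCLAF with DUT 1.28 and 1.23. The pair with the higher r thus had the lower ratio, and DUT and PCLAF are the more abundant genes. The same ratio of a gene with itself, a measure of how unevenly it was spread over cells, had a median of 1.48 and 1.47, against 1.15 over all genes in both flasks. RRM2 was the most uneven of the genes with 200 or more UMIs in each flask, with 2.12 and 2.15, while DUT had 1.23 and 1.15.

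Subunits of the same complex were not alike in this. The 15 pairs among MCM2 to MCM7 had a median r of 0.182 and 0.163, above the median of all 741 pairs. The 6 pairs of RFC2 to RFC5 had 0.0575 and 0.0544, and the 3 pairs of GINS1, GINS2 and GINS4 had 0.0486 and 0.0123. Their median product ratios were 1.19 and 1.14 (RFC) and 1.32 and 1.04 (GINS). That of MCM2 to MCM7 was 1.40 in SplitA, above the median of all pairs, and 1.26 in SplitB, below it. Scarcity lowers r, and the RFC and GINS sets reach down to 10.9 and 8.54 CPM, against 31.1 CPM for MCM2 to MCM7. These values were not computed without the cells of high mitochondrial share. The 5 nucleotide genes had the highest median among the roles, 0.206 and 0.212.

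**Figure D3:**
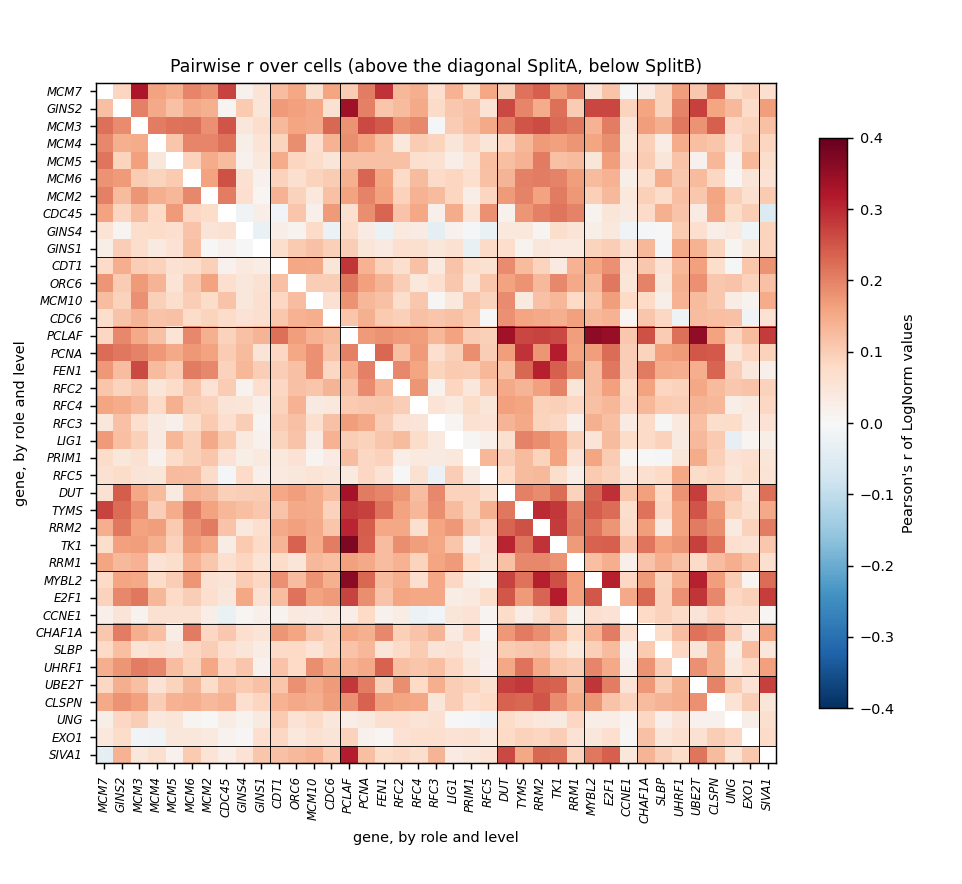
Pearson's r of LogNorm values over cells for the 741 pairs of 39 genes, above the diagonal in SplitA and below it in SplitB, with lines between the roles. Red fills most of both triangles, strongest where PCLAF, the nucleotide genes, MYBL2, E2F1 and UBE2T meet, and the rows of GINS4, GINS1, CCNE1 and UNG are pale.

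Beyond the 43 genes, those with the highest r with their sum, ranked by the lower flask, were H2AZ1 (0.605 and 0.565), a histone variant, and HMGB2 (0.551 and 0.561), a chromatin protein that peaks in G2. They were followed by TUBB (0.506 and 0.494), HMGB1 (0.458 and 0.507), TUBA1B (0.529 and 0.456), CKS1B, SMC4, H4C3 and BIRC5 (0.406 and 0.399). The tubulins, HMGB1 and H2AZ1 have levels of 996 CPM or more in both flasks, far above most of the 43 genes. Of 53 other genes of replication and its surroundings, 41 had 50 or more UMIs in each flask. Of these, 34 had an r of 0.1 or more in both (82.9%, against 6.84% of the 7717 genes outside the 43). NASP, a histone chaperone, had 0.4 and 0.367, and HELLS, a chromatin helicase, 0.362 and 0.315. RPA3, the most abundant of this list and a subunit of the single-strand binding complex, had 0.341 and 0.279. Of 25 other G1/S control genes, 18 had enough UMIs and 9 reached 0.1 in both flasks (50%). E2F2 had 0.237 and 0.256 and TFDP1, the partner of E2F factors, 0.230 and 0.187, while the D-type cyclin gene CCND1, at 708 and 650 CPM, had 0.173 and 0.252 and CDK6 0.117 and -0.00956. No gene of either list is among the 43. Of the 54 G2 and M genes that are used further on, 50 had enough UMIs and 41 of these reached 0.1 in both flasks (82%). A high share was thus not particular to the genes of replication.

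To place the genes along the cycle, cells were divided by 2 lists that hold none of them. One was of replication-dependent histone genes, of whose UMIs H4C3 held 93.7%. Of the 7 genes of this list with enough UMIs, only H4C3 and H2AC20 had an r of 0.1 or more with the sum of the 43 genes in both flasks. The largest after H4C3 had negative r, H1-2 (-0.117 and -0.0370), H2BC5 (-0.236 and -0.141) and H2AC6 (-0.248 and -0.282). The list without H4C3, used in an alternative further on, was thus led by genes that ran against the 43 genes. The other list was of 54 G2 and M genes, led by HMGB2 (18.9% of its UMIs), CKS1B (10.7%) and JPT1 (9.60%), so that these 3 genes weigh most in it. Cells in the top 25% of both shares, of the histone share only and of the G2M share only made 3 ranges. The remaining cells were split into those in the top 25% by the share of the other members (many member) and the rest (few of all). The ranges are cuts of a continuous share and not cell types, and 154 of 2094 cells lay within 10% of the G2M cut. By the share of all 43 genes, in SplitA they held 407 (few of all), 131 (many member), 132 (histone only), 97 (histone and G2M) and 132 (G2M only) cells, and in SplitB 525, 180, 195, 100 and 195. Median UMIs per cell were lowest in the many-member range, 5288 and 5498, against 7143 and 8039 in the histone-only and 7158 and 6971 in the histone and G2M range.

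Nearly every gene was lowest where histone, G2M and member shares were all low. That held in both flasks for 36 of the 39 genes (18.1% of all 7756 genes), with CCNE1, SLBP and UNG the exceptions. Since the range was defined with a low share of the other members, the count for this range describes co-expression again, as does the level in the many-member range, which was 1.5-fold or more above it in both flasks for 37 of the 39 genes (7.4% of all genes). The folds by the histone and G2M shares alone do not use the members. In the top 25% of cells by histone share, 28 of the 39 genes were 1.5-fold or more higher than in the other cells in both flasks (3.78% of all genes outside the histone list), with medians of 1.89-fold and 1.81-fold. In the top 25% by G2M share, 13 were (7.2% outside the G2M list), with medians of 1.49-fold and 1.54-fold. The folds by these shares were not computed without the cells of high mitochondrial share.

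The range of highest level was not the same for all 39 genes. The many-member range was chosen by a high share of the other members, so co-expressed genes are raised there by that choice. Nothing is read from counts and folds of this range against those of all genes, and they serve only to set the members beside each other. In both flasks 13 genes were highest in it (4.77% of all genes), which are MCM3, MCM4, MCM5, MCM6, MCM10, CDC6, RFC4, RFC5, FEN1, SLBP, UHRF1, CHAF1A and UNG. In the histone-only range 3 were highest (GINS1, GINS4 and E2F1, 2.82%), in the histone and G2M range 6 (PRIM1, LIG1, PCLAF, TK1, RRM1 and SIVA1, 6.68%), and in the G2M-only range 2 (MCM7 and UBE2T, 19.8%). For the other 15 the highest range was not the same in the flasks. The count of 13 depended on how cells were chosen: it was 7 with limits on the mitochondrial share and the complexity of cells, 4 after thinning, 4 with wider cuts (the top 33.3% in place of 25%), and 23 with a histone list without H4C3. RFC4 was highest in the many-member range under all 13 alternatives, MCM5 under 12, and UNG under all 11 in which it had enough UMIs. A changed minimum of UMIs sets only which genes are counted, so those alternatives could not have moved a gene that passed it.

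The clamp loader gene RFC4 was thus the steadiest of them. In the order few of all, many member, histone only, histone and G2M, G2M only, it had 18.0, 79.2, 44.9, 46.8 and 43.5 CPM in SplitA and 18.4, 81.5, 47.7, 37.8 and 40.2 CPM in SplitB. In both flasks it stood highest in the many-member cells and at roughly equal level in the other 3 ranges above the lowest. The fold of many-member over histone and G2M cells was 1.69 (1.09 to 2.67) and 2.15 (1.39 to 3.43). Folds between these ranges were chosen for description after the first values were seen.

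The same fold of 1.5 or more in both flasks, which 3.84% of all genes had, was found for 3 more genes. MCM5 had 66.8 against 41.3 CPM in SplitA and 53.6 against 31.1 in SplitB, MCM6 60.2 against 33.1 and 64.1 against 39.2, and UNG 35.6 against 17.9 and 46.9 against 14.9. The intervals of all these folds left out 1 in both flasks, apart from that of UNG in SplitA (1.99, 0.985 to 4.21). The direction held in both flasks under every alternative for RFC4, MCM5 and UNG, and under 11 of 12 for MCM6, whose lowest fold was 0.930 with wider cuts. The size of 1.5-fold in both flasks held less often, under 11 of 13 alternatives for RFC4, 9 of 11 for UNG, 8 of 13 for MCM5 and 7 of 12 for MCM6. These tallies also hold alternatives with a changed minimum of UMIs, which could not move the folds of a gene. Without the cells of high mitochondrial share the folds were 1.63 and 1.54 for RFC4, 1.51 and 3.45 for UNG, 1.13 and 1.39 for MCM5 and 1.24 and 1.06 for MCM6, which was then highest in the histone-only range.

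The opposite pattern, 1.5-fold or more lower in the many-member than in the histone and G2M cells in both flasks (4.42% of all genes), was found for PCLAF, RRM2, MYBL2, UBE2T and SIVA1. RRM2 went through the 5 ranges with 15.5, 75.5, 136, 129 and 103 CPM in SplitA and 8.89, 72.3, 110, 166 and 105 in SplitB. PCLAF had 77.9, 228, 371, 390 and 220 CPM in SplitA and 76.8, 261, 340, 397 and 224 in SplitB. Both had their highest levels where the histone share was high, and PCLAF fell back to its many-member level in the G2M-only cells. For RRM2 the G2M-only level was 0.759 (0.572 to 1.003) and 0.956 (0.753 to 1.21) of the histone-only level, and both intervals held 1. The intervals of the folds left out 1 in both flasks for all 5 genes. The size of 1.5-fold in both flasks held under 11 of 13 alternatives for UBE2T, 10 for RRM2, 8 for MYBL2, 6 for SIVA1 and 5 for PCLAF. Alternatives with a changed minimum of UMIs are counted here too and could not move these folds. With a histone list without H4C3, which is the bulk of that list, the direction was lost in at least 1 flask for PCLAF, RRM2, MYBL2 and SIVA1, but not for UBE2T. Without the cells of high mitochondrial share the folds of many-member over histone and G2M cells were 0.512 and 0.443 for RRM2. MYBL2 had 0.656 and 0.536, UBE2T 0.583 and 0.487, PCLAF 0.591 and 0.675 and SIVA1 0.675 and 0.689. PCLAF then fell short of 1.5-fold lower in SplitB, and SIVA1 in both flasks.

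E2F1 was high in the many-member and the histone cells alike. Its level was 34.8, 140, 166, 138 and 59.6 CPM in SplitA and 30.8, 143, 148, 120 and 71.7 in SplitB, so the G2M-only cells had 0.358 (0.255 to 0.496) and 0.485 (0.373 to 0.626) of the histone-only level. PCLAF and CCNE1 were also 1.5-fold or more lower in G2M-only than in histone-only cells in both flasks (1.81% of all genes). CCNE1 had 7.45 against 20.1 and 7 against 18.1 CPM, from 6 against 21 UMIs in SplitA and 8 against 30 in SplitB. Its folds were 0.371 (0.123 to 0.951) and 0.387 (0.153 to 0.863). These 3 directions too were lost with the histone list without H4C3, where the highest folds were 1.13 (E2F1), 1.85 (PCLAF) and 1.00 (CCNE1). Without the cells of high mitochondrial share the G2M-only over histone-only fold was 0.334 and 0.466 for E2F1 and 0.409 and 0.188 for CCNE1. PCLAF had 0.548 and 0.688 and fell short of 1.5-fold lower in SplitB. MCM6 (0.491 and 0.576), CDC6, RRM1, SLBP, CHAF1A and CLSPN were then 1.5-fold or more lower in both flasks as well. The share of all genes was not computed without these cells.

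MCM7 departed from the other MCM genes. It had 81.3, 173, 120, 141 and 239 CPM over the 5 ranges in SplitA and 76.2, 187, 121, 138 and 250 in SplitB, highest in the G2M-only cells, where its fold over the histone-only cells was 1.98 (1.57 to 2.50) and 2.06 (1.72 to 2.48). No other of the 39 genes was 1.5-fold or more higher there in both flasks, which 10.5% of all genes were. This moved with the cells of high mitochondrial share, in which MCM7 had 693 CPM in SplitA and 684 in SplitB, against 107 and 106 in the other kept cells, a fold of 6.46 (5.36 to 7.75) and 6.47 (5.57 to 7.49). Without those cells MCM7 had 121 CPM in the G2M-only and 123 in the histone-only range of SplitA, and 135 and 130 in SplitB. UBE2T had 146 and 143 CPM in cells of high mitochondrial share against 134 and 130 in the others, and in the G2M-only range it had 245 and 255 CPM with and 239 and 259 CPM without them. Without them its highest range in SplitA was histone and G2M, at 247 CPM, and in SplitB still G2M only. The span of MCM7 holds the microRNA genes MIR25, MIR93 and MIR106B on the same strand, and the part of such overlaps in its counts was not tested.

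In all, 24 of the 39 genes were 1.5-fold or more higher in the cells of high mitochondrial share in both flasks (24.4% of all genes), and SIVA1 alone was that much lower (12.9%). FEN1 was 4.71-fold and 3.45-fold higher, MCM6 4.82-fold and 2.7-fold, MCM5 3.50-fold and 4.15-fold, and RFC4 3.12-fold and 3.54-fold. MYBL2 had 80.1 and 81.8 CPM in these cells against 103 and 108 in the others. Most genes of the helicase and of synthesis were thus higher there and MYBL2 was not. Without these cells MCM3, MCM5, GINS2, MCM10, RFC4, UHRF1 and UNG were the genes highest in the many-member range in both flasks, and none was highest in the G2M-only range in both. FEN1 overlaps FADS2, UNG overlaps ACACB, PRIM1 overlaps NACA and PCLAF an unnamed coding gene on the same strand, and their counts are uncertain to that extent.

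**Figure D4:**
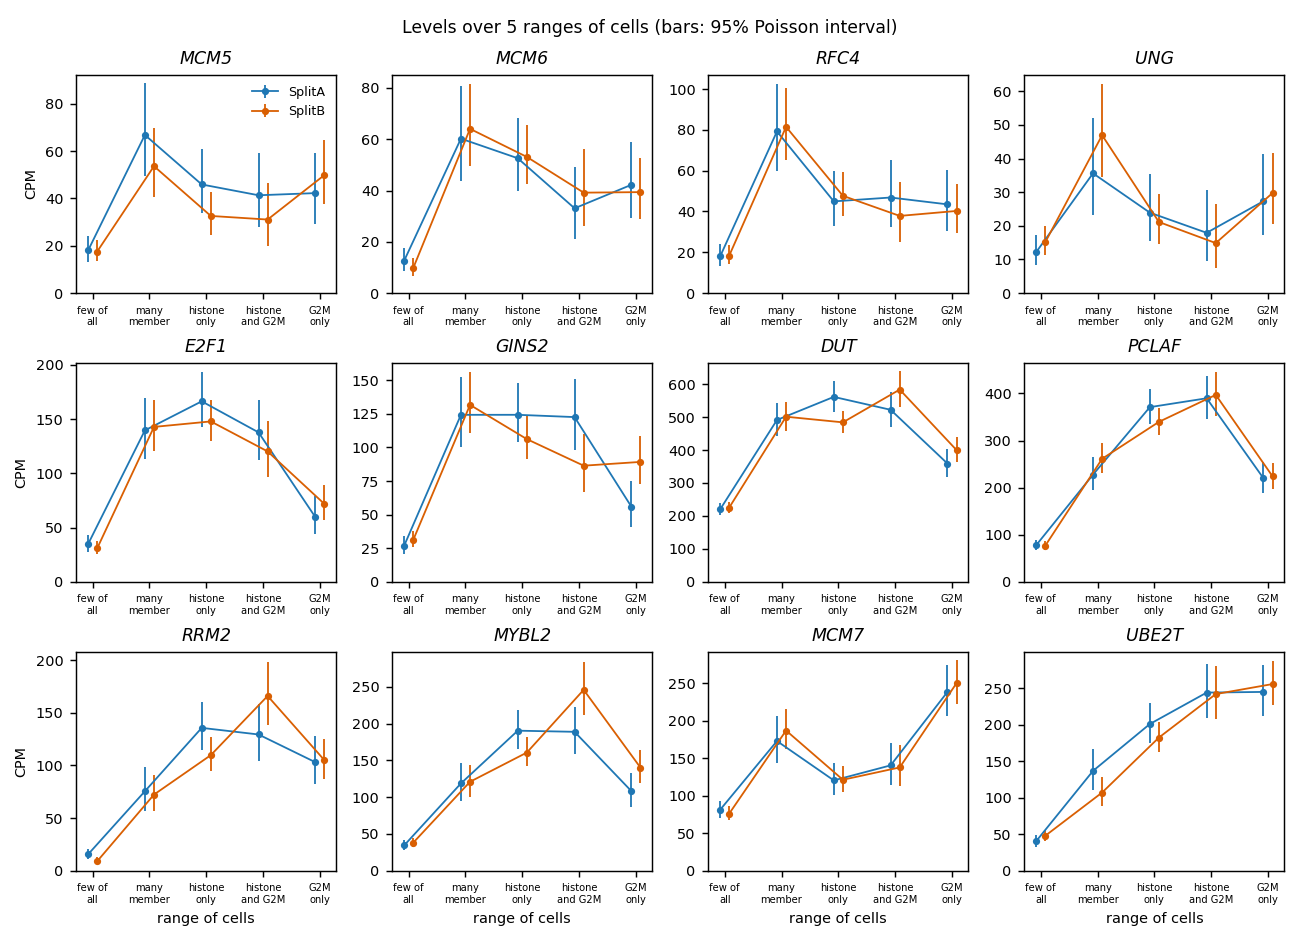
Level in CPM of 12 genes in 5 ranges of cells, by flask; points are summed levels of a range and bars 95% Poisson intervals. RFC4 peaks in the many-member cells (79.2 and 81.5 CPM), PCLAF and MYBL2 where the histone share is high, and MCM7 (239 and 250 CPM) in the G2M-only cells, a peak that was not present without cells of 15% or more mitochondrial UMIs.

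A position that needs no cut was taken as the mean percentile, by G2M share, of the cells that held the UMIs of a gene. Each UMI was weighted by the inverse of the UMI total of its cell. The position is 50 for a gene that is spread without regard to the G2M share. The median was 51.9 over all 7756 genes and 63.4 over the 39, of which 38 were at 55 or above (25.5% of all genes). The exception was CCNE1 at 54.7, from 57.5 in SplitA and 52.0 in SplitB. The highest was RRM2 at 71.3, from 71.0 and 71.7.

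The order of the 39 genes had a Spearman rho of 0.674 between the flasks, and the position of a gene differed by a median of 1.49 percentiles and at most 8.12 (GINS1, with 50 UMIs in SplitA). Over the 25 genes with 200 or more UMIs in each flask rho was 0.838 and the median difference 1.20. Without the cells of high mitochondrial share rho was 0.740, over 38 genes. Genes low in this order were SLBP (52.9 and 58.4), UNG (58.9 and 56.8), DUT (57.9 in both), SIVA1 (59.3 and 57.9) and RFC4 (60.4 and 57.5). An even spread over cells also brings a position toward 50, so a low one is not read as early in the cycle. SIVA1 was highest in the histone and G2M cells (369 and 338 CPM), and DUT had 220 and 226 CPM even in the few-of-all cells. High were TK1 (69.6 and 65.5), UBE2T (68.9 and 68.3), TYMS (68.0 and 69.6), CDC45 (72.9 and 67.3) and RRM2. Without the cells of high mitochondrial share CDC45 had 63.1 and 64.2, below RRM2, TK1, UBE2T and TYMS in both flasks. MCM7 moved from 63.8 and 64.5 to 57.1 and 57.4. RRM2 (68.7 and 71.3), TK1 (69.3 and 67.5), UBE2T (69.9 and 69.6) and TYMS (66.4 and 68.0) stayed high. Between these the steps were small. From CDT1 (60.8 and 59.7) to MCM2 (66.7 and 65.5) each of the 25 steps between neighbours was 0.859 percentiles or less, under the median difference between flasks, and no order is read among them. The ends were apart by more than that, since DUT and RRM2 differed by 13.1 and 13.7 percentiles within the flasks. Without the cells of high mitochondrial share their distance was smaller, with DUT at 58.8 and 58.7 and RRM2 at 68.7 and 71.3.

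**Figure D5:**
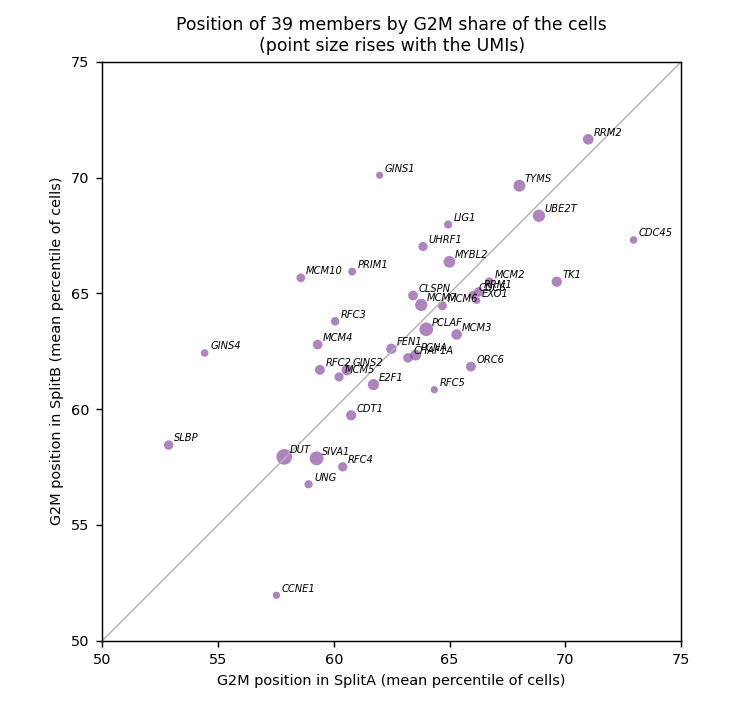
Position of 39 genes by the G2M share of the cells that held their UMIs, as a mean percentile, in SplitA (x axis) and SplitB (y axis); point area rises with the UMIs of the gene and the line marks equal positions. DUT, SIVA1 and SLBP lie at the lower left and RRM2, TYMS and UBE2T at the upper right in both flasks, while scarce genes such as GINS1, GINS4 and MCM10 lie off the line.

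The percentile by histone share gave another order. MCM7 was low by it in both flasks (40.2 and 40.7), and so was MCM5 (48.8 and 44.6). CDC45 had 33.2 in SplitA but 54.2 in SplitB, the largest difference between flasks of any of the 39 genes. In SplitA it had 151 CPM (32 UMIs) in the cells of high mitochondrial share against 10.6 (60 UMIs) in the others. That is a fold of 14.2 (8.93 to 22.1), while the fold in SplitB was 3.37 (1.73 to 6.07). Of the 70 such cells of SplitA, 0 lay in a range of high histone share. Positions by histone share were not computed without such cells. By the mean of the flasks MYBL2 (64.7), PCLAF (63.7) and TK1 (63.7) were the highest. TYMS and RRM2, both high by G2M share, differed here, with 54.0 and 62.1. DUT and SIVA1, both low by G2M share, had 56.8 and 59.9, above RFC4 at 48.3 and UNG at 48.0. Over the promoter windows, the 20 of these genes with an E2F sequence had a median r of 0.315 and a median G2M position of 64.1, and the 16 with a window but without one 0.277 and 63.0.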

How the data were processed

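The deposited values are UMI counts per gene and cell without normalization, which the authors made by mapping reads to GRCh38 with STAR 2.7 and counting with Cell Ranger 4.0.0 (the annotation version is not given in the sources used here). Hashtag counts in the same table assigned cells to flasks: 1 hashtag had to be 3 times the other or more and the other 185 or less. Singlets with 1000 or more genes were kept, with no further doublet caller. The tools were pandas 2.3.3, scipy 1.17.1, numpy 2.4.6 and matplotlib 3.10.9 in Python 3.11.15, and the steps were tested on simulated data. Gene spans are of GENCODE release 44, in which 21 pseudogenes carry the name of a member. None of them has a row in the table, so reads from them cannot be seen apart.

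Intervals are exact Poisson (levels), conditional binomial (ratios) and Clopper-Pearson (shares). Minimums were 50 UMIs in each flask. The members and lists were chosen with earlier results of these data known. Named are all 43 members, the 10 other genes with the highest r with their sum, the 10 highest pairs, and at most 5 genes of each list. Some genes that this rule names are not reported here. Folds between ranges, the split by mitochondrial share and 5 alternatives were chosen after seeing the data. The other 77 concerned cell filters, hashtag limits, depth, minimums, correlation measure, lists and cuts.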

Additional observations from a re-analysis of the deposited data

Results flagged for a closer look

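Cells that the comparisons left out also held UMIs of the 43 genes, a signal outside the main measurement. In the 690 singlets with under 1000 genes their summed level was 4263 CPM (4135 to 4393), above the 2530 and 2514 CPM of the kept cells. These cells had a median of 1406.5 UMIs and a median mitochondrial share of 35.0%. Relative to UMIs that are not mitochondrial, the fold over kept cells was 2.24 in SplitA and 2.38 in SplitB. Of the 39 genes with 50 or more UMIs in each flask, 32 were higher in them in SplitA and 32 in SplitB, against 51.8% and 51.7% of all 7756 genes. Ranked by the lower flask, MCM7 was the furthest, 5.41-fold and 5.14-fold higher. It had 695 CPM (617 to 780) in SplitA and 670 CPM (604 to 740) in SplitB. CDC45 (3.68-fold and 4.51-fold) and FEN1 (3.57-fold and 4.40-fold) followed. In single flasks MCM6 (3.21-fold and 5.17-fold) and LIG1 (4.66-fold and 2.47-fold) also stood high. SIVA1 (0.526-fold and 0.410-fold), MYBL2 (0.709-fold and 0.457-fold) and PCLAF (0.512-fold and 0.513-fold) were lower in both flasks. In the 95 multiplets the summed level was 2358 CPM (2237 to 2485).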

How the results depend on the processing

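Over 85 values from alternatives (each flask left out gives a value of its own), 58 stayed within the limits set for a change (1.5 times for counts, 0.1 for rho, and for other values the standard deviation of 2 flasks, which is small). Some of the 58 could not have moved. A flask left out always stays within the standard deviation of the 2 flasks, and the order by G2M share does not use the histone list. The number 58 is therefore not read as a measure of steadiness. The number of genes with enough UMIs (27 to 42) and with an r of 0.1 or more (25 to 40) stayed within 1.5 times. Summed CPM was 2633 with 500 genes per cell, 2430 with limits on complexity and mitochondrial share, 2543 with a hashtag limit of 100, 2542 without the 2% of cells with most UMIs, 2651 after thinning, 2782 relative to UMIs that are not mitochondrial and 2636 as the mean of cell shares, which also raised the genes over 1.5-fold apart from 0 to 2. The median pairwise r moved to 0.0780 (500 genes per cell), 0.114 (hashtag limit), 0.0648 (thinning), 0.0963 and 0.154 (minimums of 20 and 200 UMIs), and 0.134 in cells of 4000 to 9000 UMIs. The median product ratio was 1.24 with 500 genes per cell, 1.37 with limits on complexity and mitochondrial share, 1.38 without the cells of most UMIs, 1.48 after thinning and 1.43 in cells of 4000 to 9000 UMIs. The genes highest in the many-member range numbered 20 with 500 genes per cell, 7 with limits on complexity and mitochondrial share, 4 after thinning, 8 with a minimum of 200 UMIs, 23 without H4C3 and 4 with wider cuts. The rho between flasks was 0.838 with a minimum of 200 UMIs, over 25 genes, and 0.507 for the ratio of G2M-only over histone-only CPM, an order whose rho with the main one was 0.326. Fewer genes tested or fewer UMIs are part of thinning and of the minimums; otherwise the cause was not tested. Leaving out 1 flask gave 2514 to 2530 CPM, a median r of 0.101 to 0.111 and a product ratio of 1.30 to 1.35. No paired analysis was possible because both flasks are of 1 condition. Depth limits the order: a gene of 50 UMIs places in a flask far less surely than one of 2184.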
